A study of Mus musculus with 12 samples.

Results

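Oxidative phosphorylation subunit genes were followed here in sorted cells of mouse leukaemias. The members were the genes whose probe set was annotated to 1 symbol starting with Nduf, Uqcr, Cox4, Cox5, Cox6, Cox7, Cox8 or Atp5, plus Sdha, Sdhb, Sdhc, Sdhd and Cycs. The rule used names and no measured value, although it was set with earlier results of these data known. It gave 90 of the 22180 genes with such a probe set, and a gene with more than 1 probe set was read by the one with the highest mean. Of the 90, 85 were tested, because their value exceeded log2 4.61 on at least 3 arrays, and 79 of these exceeded it on every array. The 5 that were not tested were the pseudogenes Atp5c1-ps and Uqcrh-ps1, the isoforms Cox7a1 and Cox7b2, and the assembly factor Ndufaf2. The 85 comprised 32 genes of complex I, 4 of complex II, 7 of complex III, 16 of complex IV and 17 of complex V, with 7 assembly factors of complex I, cytochrome c and the supercomplex factor Cox7a2l beside them. Despite the name of the module, these 9 are no subunits of complexes I to V, and the prefix Nduf also took in Ndufa4 and Ndufa4l2, which are counted here with complex IV. Cox6c, Ndufb2, Ndufb4, Ndufs6 and Uqcr10 had only probe sets naming several genes and were left out, and the subunits encoded by mitochondrial DNA were not analysed here.

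The samples were 12 arrays of leukaemic cells from mice, each carrying the MLL-AF9 oncogene, a fusion found in acute myeloid leukaemia. Leukaemias 73, 75 and 79 were labelled WT for Dnmt3b overexpression and leukaemias 81, 83 and 85 were labelled Dnmt3b-knockin, called WT and KI below. Each leukaemia was sorted into a ckit-pos and a ckit-neg fraction, so that 4 groups held 3 arrays each; c-kit is the receptor by which immature blood cells sense stem cell factor. Titles name bone marrow and the source field names spleen, and the labels give no strain, age, treatment or promoter of the knock-in. Dnmt3b itself, a de novo DNA methyltransferase, had a log2 level of 6.39 ± 0.085 (SD, n = 3) in the KI and 6.36 ± 0.124 (SD, n = 3) in the WT leukaemias, a difference of 0.03 (95% confidence interval -0.19 to 0.25, limma adjusted p = 0.964), so the KI label is used only to name a group. Kit followed the sort, at 1.41 higher on the log2 scale in the ckit-pos fraction (limma adjusted p = 7.78e-06). Leukaemia 81 stood apart from the other 5 in Xist, the RNA of the silenced X chromosome, at 6.30 and 6.27 against 9.83 to 11.66. Some results are given with and without it, and the rest include it. The labels do not say that the leukaemias came from separate mice, so p-values measure the spread between these samples.

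Oxidative phosphorylation passes electrons from NADH through complex I, or from succinate through complex II, to ubiquinone, then through complex III and cytochrome c to oxygen at complex IV. Complexes I, III and IV pump protons across the inner mitochondrial membrane, and complex V, the ATP synthase, uses their return to make ATP. Leukaemic stem and progenitor cells are known for their reliance on this pathway, and mature neutrophils are known for few mitochondria.

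The bases just before the start of transcription are shown for Ndufa10, Atp5b and Ndufc2, which are among the genes with the smallest p between the genotypes over both fractions, and for Cycs and Atp5g2, which were picked after a motif search to show what a hit looks like. The sequences are RefSeq promoter stretches of 150 bases on the strand of the gene, in build GRCm38.p6. Capitals mark the NRF1-type motif, a binding sequence of nuclear respiratory factor 1, which regulates many nuclear genes of mitochondria. Ndufa10 lies on the minus strand (chr1:92473759-92473908), Atp5b on the plus strand (chr10:128083157-128083306) and Ndufc2 on the plus strand (chr7:97399853-97400002). Cycs lies on the minus strand (chr6:50566570-50566719) and Atp5g2 on the minus strand (chr15:102671048-102671197).
Ndufa10: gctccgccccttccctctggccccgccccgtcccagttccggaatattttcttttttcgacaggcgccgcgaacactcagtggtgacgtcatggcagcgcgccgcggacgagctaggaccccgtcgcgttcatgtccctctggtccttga
Atp5b: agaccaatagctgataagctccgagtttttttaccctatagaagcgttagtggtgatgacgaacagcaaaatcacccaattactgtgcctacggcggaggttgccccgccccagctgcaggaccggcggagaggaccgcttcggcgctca
Ndufc2: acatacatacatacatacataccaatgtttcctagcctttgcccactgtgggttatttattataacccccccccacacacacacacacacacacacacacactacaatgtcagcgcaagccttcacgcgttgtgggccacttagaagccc
Cycs: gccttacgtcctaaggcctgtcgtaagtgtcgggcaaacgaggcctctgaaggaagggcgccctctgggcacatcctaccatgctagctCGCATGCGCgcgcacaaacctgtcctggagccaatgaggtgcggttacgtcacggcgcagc
Atp5g2: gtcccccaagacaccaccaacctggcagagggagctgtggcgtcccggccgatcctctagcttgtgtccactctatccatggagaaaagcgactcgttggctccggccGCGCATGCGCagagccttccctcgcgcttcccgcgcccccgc

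Windows from 250 bases before to 50 after the start were in the RefSeq table for 73 members, 5 of them with 2 windows. Searched on both strands, the NRF1-type motif GCGCATGCG was in 11 of the 78 member windows (14.1%), against 1.75% of the 32851 windows of all genes. The YY1-type motif AAGATGGCG was in 7 (8.97%, against 1.4%) and the ETS-type motif CCGGAAG in 19 (24.4%, against 8.86%). Member windows also had a higher median GC content, 58.5% against 52.7%, and each of the 3 motifs has more G and C than A and T. The windows of Ndufa10, Atp5b and Ndufc2 held none of the 3 motifs, which says only that these letters are not there.

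The group mean of a gene, over 3 arrays, was highest in the WT ckit-pos group for 66 of the 85, among them 28 of 32 genes of complex I, 7 of 7 of complex III and 11 of 17 of complex V. It was lowest in the KI ckit-neg group for 52, and 48 showed both. Of the 6 tested isoforms of complex IV outside its common subunits 1 showed both, as did 2 of the 7 assembly factors. These counts were not made over all genes. The 4709 genes brighter than log2 6.83, the median of the members, leaned the same way. Of them 3052 lay below 0 between the genotypes (KI minus WT) and 3047 above 0 between the fractions (ckit-pos minus ckit-neg). Of the 14443 other genes, 5844 and 4997 did so.

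**Figure D1:**
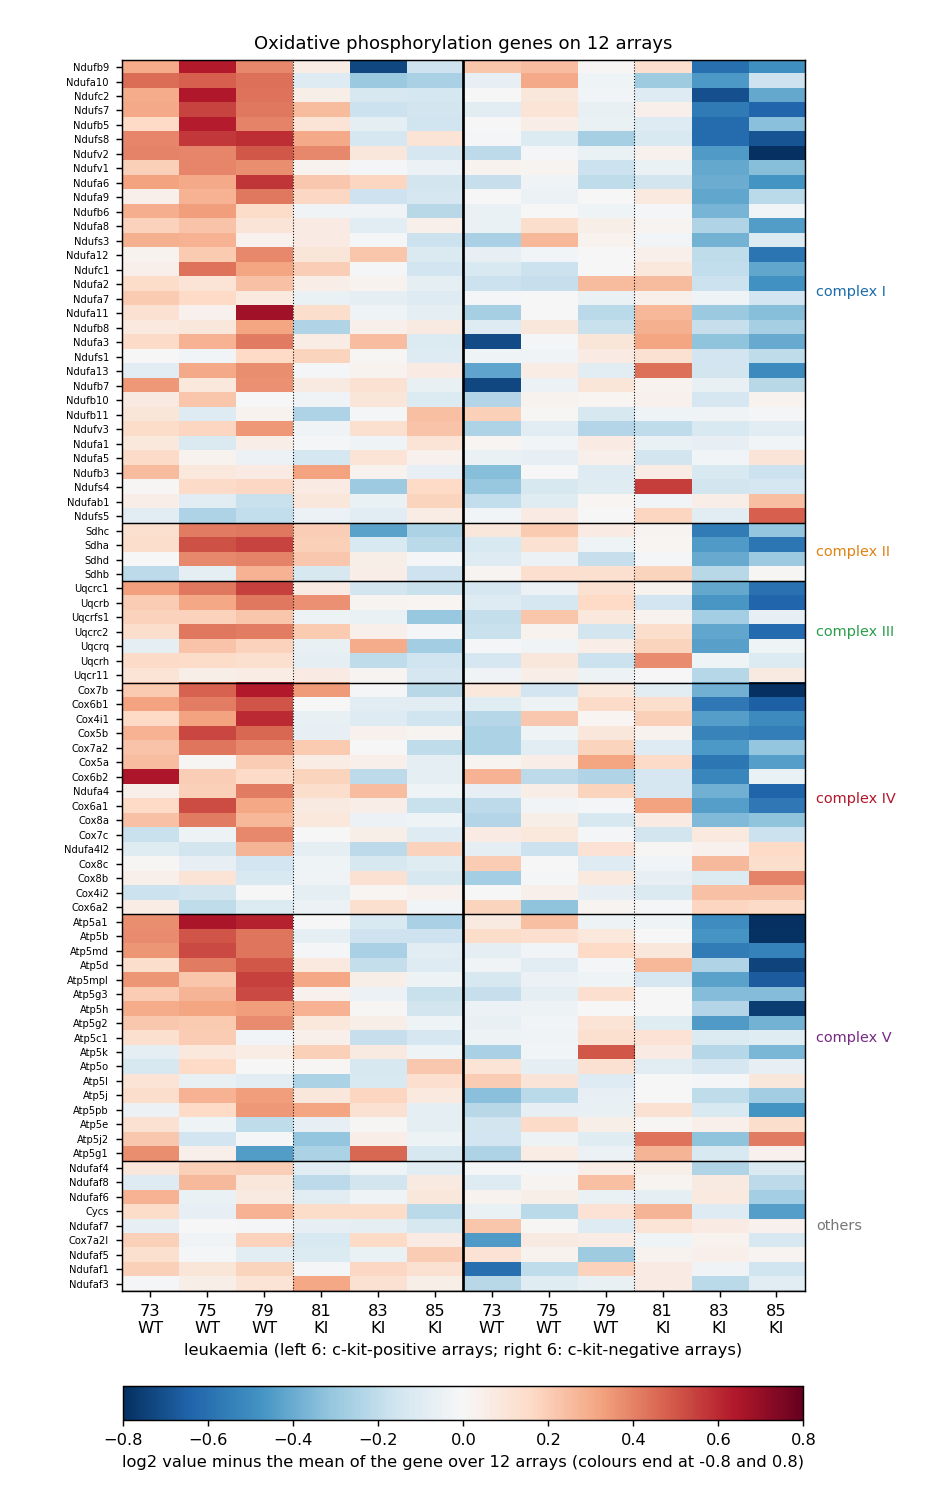
The map shows, for each of the 85 tested genes (rows, grouped by complex, "others" being assembly factors, Cycs and Cox7a2l) and each of the 12 arrays (columns), the log2 value minus the mean of the gene over the 12 arrays. The ckit-pos arrays of leukaemias 73, 75 and 79 are mostly red (66 of 85 genes have their highest group mean there). The ckit-neg arrays of leukaemias 83 and 85 are mostly blue. The count of highest group means was not made over all genes.

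Between the genotypes, members were mostly lower in the KI leukaemias, by small amounts, and 1 gene passed the threshold. In ckit-pos cells the median difference (KI minus WT, log2) was -0.18 over the 85 tested members, of which 75 lay below 0, beside a median of 0.014 over the 19152 genes tested. In ckit-neg cells it was -0.105 (58 below 0; all genes -0.0026), and over both fractions, where each leukaemia is the average of its 2 arrays, -0.13 (70 below 0; all genes 0.01). Without leukaemia 81 the medians were -0.22, -0.21 and -0.21 in this order, and without leukaemia 83 that of the ckit-neg cells was -0.053. These comparisons share leukaemias and are not independent of each other.

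Ndufa10, an accessory subunit of complex I with a fold like that of nucleoside kinases, was the member that fell in ckit-pos cells. Its log2 values were 8.31, 8.34 and 8.30 in WT leukaemias 73, 75 and 79, and 7.76, 7.56 and 7.60 in KI leukaemias 81, 83 and 85. All 3 KI arrays, leukaemia 81 included, lay below all 3 WT arrays. The gene was 1.60-fold lower (log2 -0.68, SE 0.118, 95% confidence interval -0.93 to -0.42, limma adjusted p = 0.0492). This call rests close to the threshold: it was kept without leukaemia 81 (adjusted p = 0.0446), was lost without each of the other 5, and with the leukaemia as a random block no member passed. In ckit-neg cells its values were 7.79, 8.16 and 7.82 against 7.57, 7.40 and 7.69, a difference of -0.37 (limma adjusted p = 0.685), again without overlap.

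That 1 of 85 members passed compares with 0.141% of all genes in ckit-pos cells, or 0.12% with the block. In ckit-neg cells and over both fractions 0 members passed, where 0.0627% and 0.0261% of all genes did. At an unadjusted limma p under 0.05, 26 members were lower in ckit-pos cells (all genes 6.86%), 17 in ckit-neg cells (3.76%) and 25 over both fractions (6%). None was higher at that p, beside 3.03%, 2.33% and 2.37% of all genes. Without leukaemia 81, 7 members were lower in ckit-pos cells (all genes called 0.642%), 4 in ckit-neg cells (0.433%) and 6 over both fractions (0.6%). Atp5b and Ndufs7 were in all 3 of these sets. The others were Ndufa10, Sdhc and Uqcrc1 in ckit-pos cells, Cox6b1 in ckit-neg cells, Ndufs8 over both fractions, Ndufb9 and Atp5md in ckit-pos cells and over both fractions, and Atp5a1 in ckit-neg cells and over both fractions. Leaving out 1 of the other 5 leukaemias gave no member in any of the 3 comparisons.

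Groups that did not overlap were counted as well. In ckit-pos cells all KI arrays lay below all WT arrays for 31 of 85 members (36.5%), beside 9.88% of all genes, and above them for 1, the complex I subunit Ndufs5, beside 7.56%. In ckit-neg cells this held for 10 (11.8%), beside 4.66%. The leukaemia means of the KI group lay below those of the WT group for 22 members (25.9%), beside 7.45%, and above them for 1, Ndufab1, the acyl carrier protein of complex I, beside 5.52%. A two-sided exact permutation test of 3 leukaemias against 3 cannot go below p = 0.1 for a single gene.

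**Figure D2:**
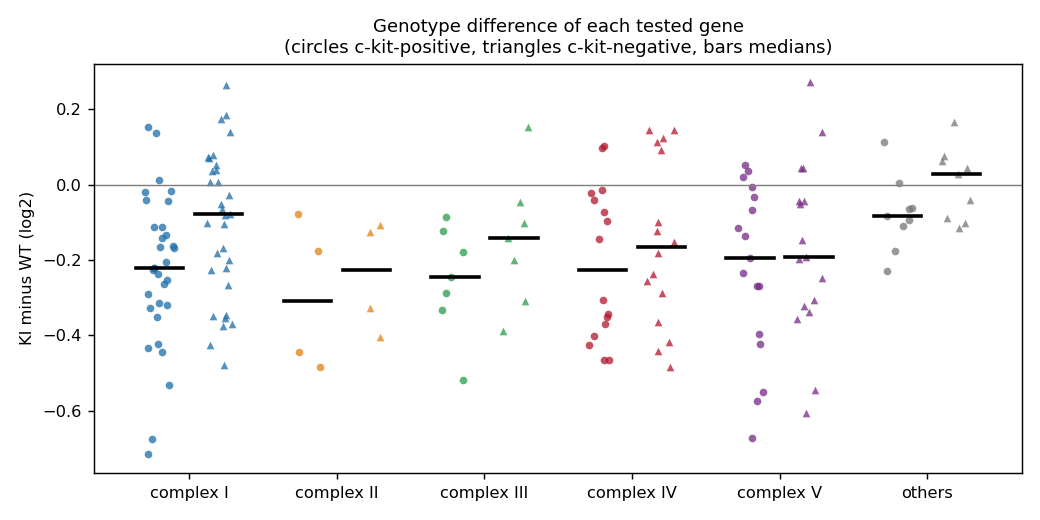
Each point is 1 tested gene and gives its fitted log2 difference, KI minus WT, in ckit-pos (circles) and ckit-neg cells (triangles), by complex, with bars at the medians; "others" are the assembly factors, Cycs and Cox7a2l. All complexes have medians below 0 in both fractions, from -0.31 for complex II in ckit-pos cells to -0.079 for complex I in ckit-neg cells.

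Complex I takes electrons from NADH. Its 32 tested genes had a median difference of -0.13 between the genotypes over both fractions, with 28 below 0, and of -0.24 without leukaemia 81. The 6 core subunits, which carry the flavin, the iron-sulfur clusters and the quinone site, were all below 0 with a median of -0.31, and the 26 accessory subunits had -0.11. Besides Ndufa10 (-0.52, adjusted p = 0.206), the smallest limma p over both fractions belonged to Ndufc2, an accessory membrane subunit, whose leukaemia means were 9.55 ± 0.112 in WT and 9.07 ± 0.196 in KI (SD, n = 3 each). Its difference of -0.48 did not pass (limma adjusted p = 0.33) although the groups did not overlap. Ndufb9, in the membrane arm, had -0.60, or -0.80 without leukaemia 81, and then passed (limma adjusted p = 0.0468). Ndufs7 and Ndufs8, core subunits that hold iron-sulfur clusters, had -0.41 and -0.38, or -0.58 and -0.52 without leukaemia 81, and both then passed (limma adjusted p = 0.0489 and 0.0486).

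Complex II, succinate dehydrogenase, is shared with the tricarboxylic acid cycle. All 4 of its genes lay below 0 between the genotypes over both fractions, with a median of -0.27, and none passed. Sdhc, a membrane anchor, had values of 6.59, 6.87 and 6.88 in the WT and 6.66, 6.03 and 6.21 in the KI ckit-pos arrays, and 6.55, 6.67 and 6.52 against 6.49, 5.90 and 6.15 in ckit-neg cells. Leukaemia 81 reached the WT values in ckit-pos cells, and leukaemias 83 and 85 lay below all WT arrays in both fractions. The difference was -0.44 (limma adjusted p = 0.45). Sdha, the flavoprotein, had -0.39 and Sdhd, the other anchor, -0.15. Sdhb, the iron-sulfur protein, had -0.092. Its ckit-pos values were 6.27, 6.40 and 6.76 in WT and 6.35, 6.53 and 6.31 in KI, fully overlapping.

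The 7 tested genes of complex III, which hands electrons from ubiquinol to cytochrome c, all lay below 0 with a median of -0.22. Uqcrc1, a core protein, had ckit-pos values of 8.69, 8.79 and 8.91 in WT and 8.43, 8.22 and 8.18 in KI, without overlap, and a difference over both fractions of -0.41 (limma adjusted p = 0.409). Uqcrfs1, the Rieske iron-sulfur protein, had -0.24, and Uqcrb, a subunit near the quinone site, -0.28. Cytochrome c1, encoded by Cyc1 outside the named prefixes, had -0.36 (limma adjusted p = 0.561). Cycs is the carrier between complexes III and IV. Its ckit-pos values were 8.91, 8.70 and 9.05 in WT and 8.91, 8.91 and 8.55 in KI, overlapping, with a difference over both fractions of -0.068 (95% confidence interval -0.41 to 0.27, limma adjusted p = 0.945).

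Complex IV reduces oxygen, and its nuclear subunits come in widely expressed forms and in forms restricted to muscle, lung or testis. The 10 common subunits all lay below 0 between the genotypes (median -0.29). The 6 other tested isoforms, called restricted here and including Ndufa4l2, had a median of 0.05, with 5 above 0. Cox5b, with leukaemia means of 8.83 ± 0.145 in WT and 8.47 ± 0.138 in KI (SD, n = 3 each), had -0.36 (limma adjusted p = 0.408), and the groups did not overlap. Cox6b1, at the dimer interface, had -0.42 and Cox4i1, the largest nuclear subunit, -0.36, and neither passed. Cox4i2, the lung isoform of subunit 4, read 5.99 to 6.39 over the 12 arrays, Cox6a2, the muscle isoform, 6.01 to 6.51, and Cox6b2, the testis isoform, 5.27 to 6.44. Cox8b read 4.72 to 5.39, Cox8c 5.48 to 5.90 and Ndufa4l2 4.49 to 4.97, near the filter value, and Cox7a1 and Cox7b2 stayed too low to be tested. A log2 value on an array includes the background of its own probes, so levels of different genes are not compared here.

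Among these isoforms, Cox6b2 differed from the other restricted forms in that its difference had the sign of the common subunits. It had -0.27 between the genotypes (limma adjusted p = 0.723) and 0.29 between the fractions (adjusted p = 0.186). Its ckit-pos values were 6.44, 5.99 and 5.95 in WT and 5.97, 5.58 and 5.71 in KI, overlapping in leukaemia 81. Of the common forms, Cox6a1 had -0.25, Cox7b -0.44, Cox7a2 -0.29, Cox8a -0.20 and Ndufa4 -0.27 between the genotypes, and none passed. Cox7a2l, which joins complexes III and IV into supercomplexes, had -0.0088.

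Complex V consists of the catalytic F1 sector, the membrane sector Fo with its ring of c subunits, and a peripheral stalk. Its 17 genes had a median of -0.12 between the genotypes over both fractions (14 below 0), and of -0.19 without leukaemia 81. The 5 F1 genes had -0.31. Atp5b, the catalytic beta subunit, read 10.91, 11.04 and 10.96 in WT and 10.46, 10.37 and 10.37 in KI ckit-pos cells, and 10.68, 10.67 and 10.62 against 10.53, 10.06 and 9.74 in ckit-neg cells. The KI arrays lay below the WT arrays in each fraction, with leukaemia 81 nearest to them in ckit-neg cells. Over both fractions Atp5b was 1.47-fold lower (log2 -0.56, SE 0.117) without passing (limma adjusted p = 0.241), and without leukaemia 81 it passed at -0.68 (limma adjusted p = 0.0372).

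Atp5a1, the alpha subunit of F1, had leukaemia means of 8.87 ± 0.115 in WT and 8.23 ± 0.311 in KI (SD, n = 3 each). Its difference was -0.64 (limma adjusted p = 0.302), or -0.79 without leukaemia 81 (limma adjusted p = 0.0462). Atp5md, a small Fo protein, had -0.45, or -0.59 without leukaemia 81 (limma adjusted p = 0.0467). The 4 stalk genes had a median of -0.055. Of the 3 genes for the same c subunit, Atp5g2 and Atp5g3 had -0.28 and -0.29, while Atp5g1, whose 12 values ran from 4.49 to 5.40 with the groups interleaved, had 0.088.

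**Figure D3:**
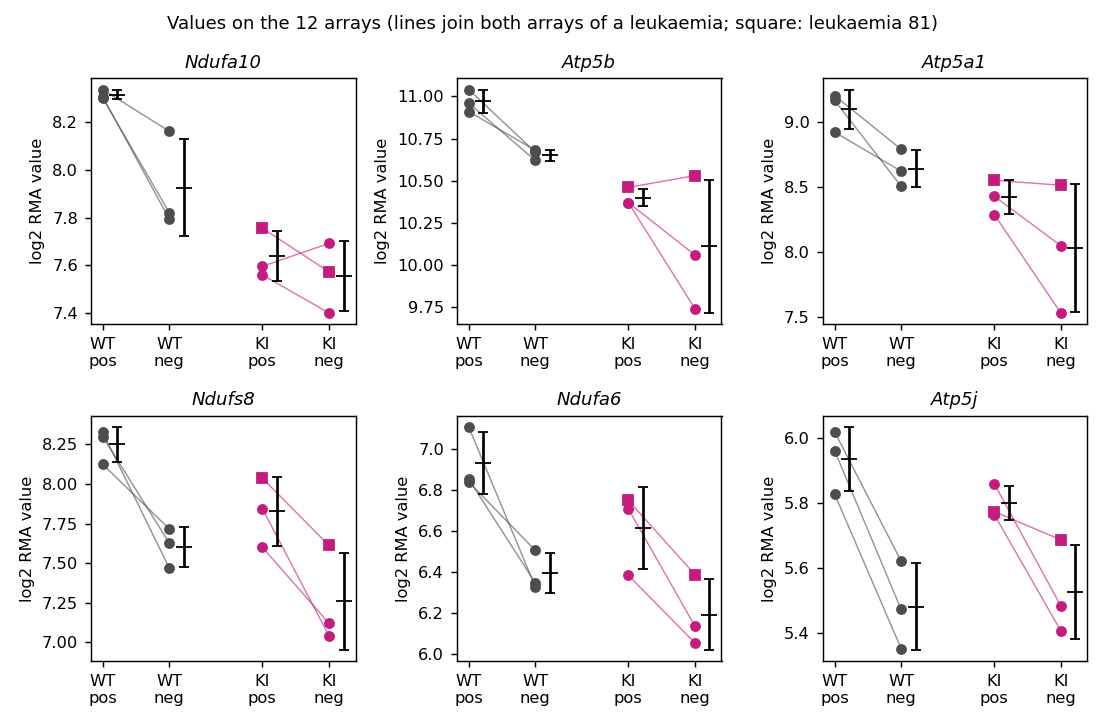
Log2 RMA values of 6 genes are plotted by genotype and c-kit fraction, with a line joining both arrays of each leukaemia, squares for leukaemia 81, and the mean ± SD of the 3 arrays beside each group. In Ndufa10, Atp5b and Atp5a1 all ckit-pos KI values lie below all ckit-pos WT values; in Ndufs8, Ndufa6 and Atp5j the ckit-pos value is above the ckit-neg value in all 6 leukaemias.

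The genotype difference was not even within the KI group. The median deviation of the 85 tested genes from their mean over the 6 leukaemias was 0.014, 0.092 and 0.15 in WT leukaemias 73, 75 and 79, and 0.042, -0.11 and -0.18 in KI leukaemias 81, 83 and 85. With both fractions averaged, leukaemia 81 lay within the WT range in complexes I to IV and just below it in complex V. Leukaemias 83 and 85 lay below the other 4 in all 5 complexes. In leukaemia 81, 57 members lay above their gene mean, against 15 in 83 and 17 in 85.

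**Figure D4:**
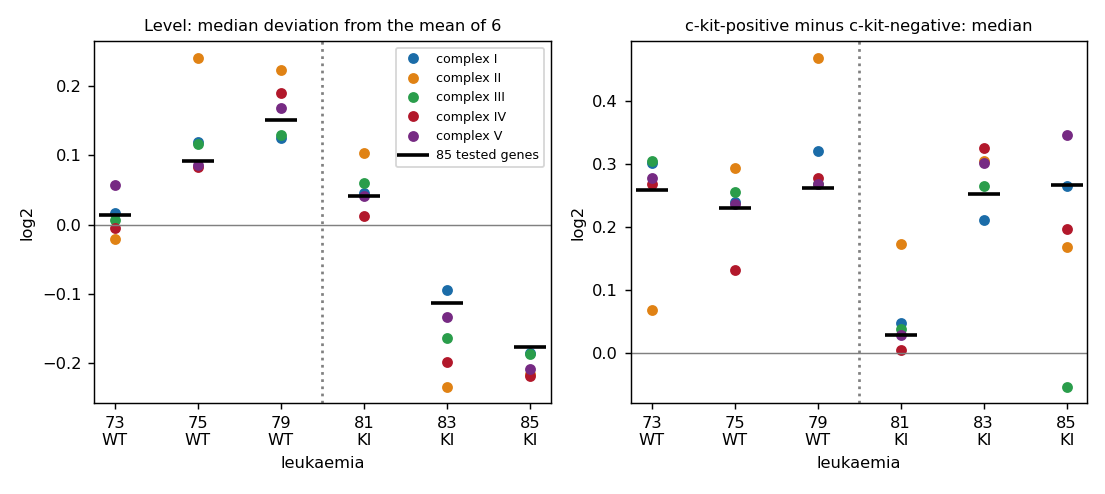
Left, the median over the genes of each complex of the log2 deviation of a leukaemia (mean of both arrays) from the mean of the 6; right, the median ckit-pos minus ckit-neg difference in the same leukaemia; black bars give the 85 tested genes. Leukaemias 83 and 85 are lowest on the left, and leukaemia 81 is lowest on the right for the 85 genes (0.03, against 0.23 to 0.27).

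Between the fractions, members were mostly higher in ckit-pos cells. Over both genotypes 14 of 85 (16.5%) rose and 0 fell, beside 8.25% of all genes called in either direction. Members are brighter than genes in general: above a mean of log2 6.83, 11 of 42 members were called (26.2%), beside 19.5% of all genes that bright, and at or below it 3 of 43 (6.98%), beside 4.59%. The median difference (ckit-pos minus ckit-neg, log2) was 0.20, with 71 above 0, beside -0.032 over all genes. With the leukaemia as a block, which the pairing of both fractions calls for, 35 rose (41.2%) and 0 fell, beside 19.6% of all genes, and the 35 included all 14. The 14 became 28 without leukaemia 81, beside 10.9% of all genes, again including all 14. They became 3, 3, 5 and 1 of 85 without 73, 75, 79 and 83, beside 543, 503, 1026 and 568 of the 19152 genes. The share of members was thus near that of all genes without 73, 75 or 79, and below it without 83. Without 85, 10 members passed, beside 1583 genes. In 33 of 85 members ckit-pos was higher in 6 of 6 leukaemias, as it was in 2481 of the 19152 genes.

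In the WT leukaemias alone the median was 0.26 and in the KI leukaemias 0.14, or 0.24 in the latter without leukaemia 81. No member passed in either without the block (all genes 0.768% and 1.88%), with 31 and 17 members higher at an unadjusted limma p under 0.05 (all genes 9.98% and 7.62%) and 0 lower (6.19% and 5.02%). With the block 26 members rose in the WT (all genes 11%) and 10 in the KI leukaemias (all genes 8.7%). The ckit-pos arrays lay above all ckit-neg arrays for 43 members in WT (50.6%), beside 14.5% of all genes, and for 8 in KI (9.41%), beside 7.24%. The interaction of genotype and fraction called 0 members, 0% of all genes, and 1 member lower and 0 higher at an unadjusted limma p under 0.05 (all genes 1.02% and 1.21%), so a difference between the genotypes in the sort effect was not shown.

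Complex I contributed 6 of the 14. Ndufs8, a core subunit with iron-sulfur clusters, read 8.12, 8.30 and 8.32 in ckit-pos and 7.72, 7.63 and 7.47 in ckit-neg cells of the WT leukaemias, and 8.04, 7.60 and 7.84 against 7.61, 7.12 and 7.04 in the KI leukaemias. It was higher in the ckit-pos cells of every leukaemia, although the KI ckit-pos arrays reached down to the WT ckit-neg values. The rise was 1.52-fold (log2 0.61, SE 0.109, limma adjusted p = 0.00514), and it passed under all 13 alternatives tried. Ndufa6, an accessory subunit of the LYR protein family, rose by 0.48 (SE 0.0916, adjusted p = 0.00721), with paired differences of 0.51, 0.33, 0.78, 0.36, 0.57 and 0.33 in leukaemias 73 to 85.

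Ndufv3, a small subunit of the NADH-binding module, rose by 0.33 (SE 0.072, limma adjusted p = 0.0146), and its 6 ckit-pos values (6.93 to 7.30) all lay above its 6 ckit-neg values (6.71 to 6.87). The other 3 of complex I were Ndufv2 (0.54), Ndufv1 (0.31) and Ndufc2 (0.38), named to complete the list; Ndufv1 and Ndufv2 are core subunits of the NADH-binding module. The 6 core subunits were all above 0 with a median of 0.35, and the 26 accessory subunits had 0.19. Ndufs5, an accessory subunit, ran the other way at -0.20 (limma adjusted p = 0.195), and all its WT ckit-pos values lay below its WT ckit-neg values.

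In complex II, Sdhd rose by 0.35 (SE 0.0938, limma adjusted p = 0.0385). Its ckit-pos values were 7.45, 7.84 and 7.85 in WT and 7.67, 7.50 and 7.45 in KI, and its ckit-neg values were 7.35, 7.41, 7.27, 7.44, 7.05 and 7.16, so that the fractions did not overlap. Sdha had the same size of difference, 0.35, with an adjusted p of 0.0923 in limma and of 0.00401 with the block, Sdhc had 0.16 and Sdhb -0.084. In complex III, Uqcrb rose by 0.44 (SE 0.101, limma adjusted p = 0.0173), with paired differences from 0.27 to 0.65 over the 6 leukaemias. Uqcrc2, the other core protein, lay just outside the threshold at 0.40 (limma adjusted p = 0.0517), and Uqcrc1 had 0.35. Both passed with the block (adjusted p = 0.00412 and 0.00433).

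In complex IV the 10 common subunits all lay above 0 between the fractions, with a median of 0.32, and 3 rose: Cox5b, Cox8a and Cox7a2. The 6 restricted isoforms had a median of -0.044. Cox8a, the common form of the smallest subunit, rose by 0.31 (SE 0.0876, limma adjusted p = 0.0467), with 0.02 in leukaemia 81 and 0.29 to 0.47 in the others, and Cox7a2, the common form of subunit 7a, by 0.35 (adjusted p = 0.0489). Cox5b rose by 0.42 (limma adjusted p = 0.0286), with -0.093 in leukaemia 81 and 0.37 to 0.58 in the others. A second, dimmer Cox5b probe set had -0.26, and the mean of both had 0.083 (adjusted p = 0.489). Cox4i1 had 0.25 and Cox6a1 0.31 without passing, and Cox4i2, Cox6a2 and Cox8c had -0.11, -0.065 and -0.16.

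In complex V, Atp5mpl, a small protein bound to the ATP synthase, rose by 0.48 (SE 0.0994, limma adjusted p = 0.011), with paired differences from 0.27 to 0.63. Atp5j, coupling factor 6 of the stalk, read 5.83, 5.96 and 6.02 in WT and 5.77, 5.86 and 5.76 in KI ckit-pos cells, and 5.35, 5.47 and 5.62 against 5.69, 5.48 and 5.41 in ckit-neg cells. Its fractions did not overlap, and the paired difference was 0.087 in leukaemia 81 and 0.36 to 0.49 in the others. It rose by 0.36 (SE 0.0762, limma adjusted p = 0.0115) and had -0.046 between the genotypes (95% confidence interval -0.26 to 0.17). Atp5g2 rose by 0.30 (SE 0.0776, limma adjusted p = 0.0315), Atp5g3 had 0.27 and Atp5g1 0.015. The F1 genes Atp5b and Atp5a1 had 0.30 and 0.42, with limma adjusted p = 0.108 and 0.0771, and passed with the block (adjusted p = 0.028 and 0.00695). Cycs had 0.14 (limma adjusted p = 0.509), and the 7 assembly factors of complex I a median of 0.085 with 0 called.

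**Figure D5:**
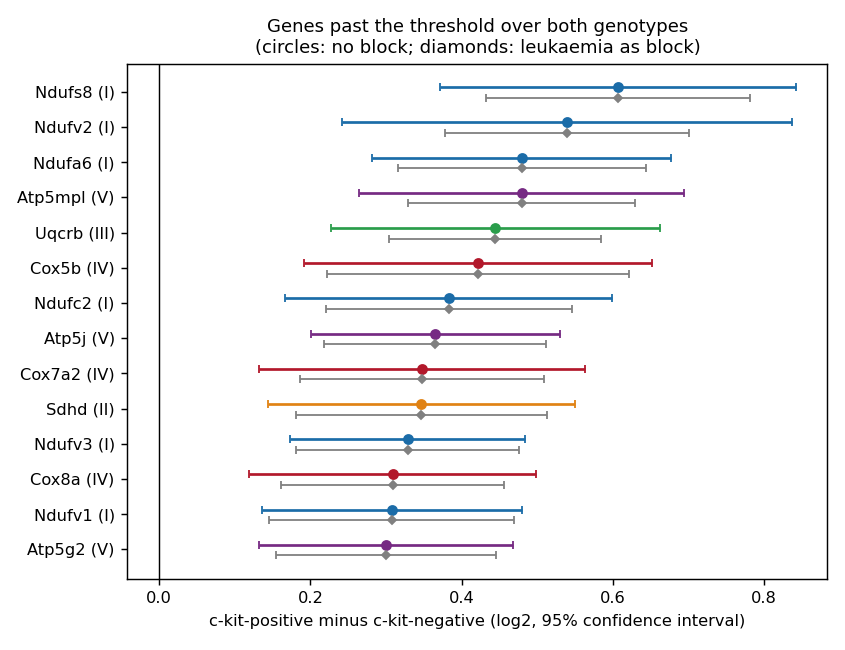
For the 14 members past the threshold over both genotypes, circles (coloured by complex) give the ckit-pos minus ckit-neg log2 difference with its 95% confidence interval without a block, and grey diamonds the same with the leukaemia as a block. The estimates are the same in both fits, from 0.30 for Atp5g2 to 0.61 for Ndufs8, and the intervals of all 14 lie above 0.

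The size of the differences went with the brightness of the probe set. The 42 tested members above a mean of log2 6.83 had medians of -0.27 between the genotypes and 0.31 between the fractions, and the other 43 had -0.066 and 0.076. Over all genes the same split gave -0.077 and 0.115 above, and 0.023 and -0.049 at or below that level. The part of probe brightness in the small differences of the assembly factors and the restricted isoforms was not tested.

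Other genes of mitochondrial energy metabolism were set beside the members, from lists chosen with earlier results of these data known. Beside the counts here and in the next paragraph, 0.0261% of all genes were called between the genotypes over both fractions. Between the fractions over both genotypes 8.25% were, in either direction. Of 17 tested genes of pyruvate oxidation and the tricarboxylic acid cycle, 17 lay below 0 between the genotypes over both fractions (median -0.24, 0 called), and 17 above 0 between the fractions (median 0.29, 6 rose and 0 fell). Suclg2, of succinyl-CoA ligase, had -0.56 (limma adjusted p = 0.143). It fell by 0.84 in ckit-pos cells alone (limma adjusted p = 0.0071). There it was the 1 gene of the list called, beside 0.141% of all genes. Pdha1, of pyruvate dehydrogenase, had -0.52 and Idh3g, of isocitrate dehydrogenase, -0.36 between the genotypes. Between the fractions Idh3a rose by 0.51 (limma adjusted p = 0.0112), Idh2 by 0.84 and Suclg2 by 0.32. Of 68 mitochondrial ribosomal protein genes, 0 were called between the genotypes (median -0.115), with Mrps2 at -0.48, and 8 rose and 0 fell between the fractions (median 0.175), led by Mrpl57 at 0.46 (adjusted p = 0.00394), Mrpl18 and Mrpl13. Of 10 adenine nucleotide carriers, porins and uncoupling genes, 0 were called between the genotypes (median -0.36), with the carriers Slc25a4 and Slc25a5 at -0.41 and -0.57 and the phosphate carrier Slc25a3 at -0.49, and 1 rose between the fractions, Atpif1, the inhibitor of ATP synthase (0.62, adjusted p = 0.00334).

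Of 39 tested factors that assemble the complexes, 0 were called between the genotypes (median -0.068) and 2 rose between the fractions (median 0.078): Cox18, a complex IV factor (0.46, limma adjusted p = 0.00455), and Atpaf2, an F1 factor (0.44, adjusted p = 0.0313). Of 21 genes of coenzyme Q and electron entry, with Cyc1 of complex III counted among them, 0 were called between the genotypes (median -0.11). Between the fractions 3 rose and 1 fell (median 0.096). Etfb, of electron transfer flavoprotein, rose by 1.17 (limma adjusted p = 0.00126), Cyc1 by 0.49 and Coq5 by 0.47, while Sqor fell by 0.28. Of 16 regulators of mitochondrial biogenesis, 0 were called between the genotypes (median -0.12), and Hcfc1 (0.49) and Myc (0.56, limma adjusted p = 0.0459) rose between the fractions (median 0.17). Myc had -0.56 between the genotypes (adjusted p = 0.408), and Ppargc1a, the coactivator PGC-1alpha, was too low to be tested. Of 17 glycolysis genes, 0 were called between the genotypes (median 0.024). Between the fractions their median was 0.035, and Tpi1 (0.62) and Pgam1 (0.39) rose while the glucose transporter gene Slc2a3 (-0.57) and Pfkp (-0.41) fell.

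Late neutrophil genes moved with both comparisons. Beside the counts below, 0.0261% of all genes were called between the genotypes over both fractions and 8.25% between the fractions. The mean log2 level of 21 late neutrophil genes was 7.56 to 8.17 in the WT and 8.63 to 8.96 in the KI ckit-pos arrays, and 8.47 to 8.99 against 9.58 to 9.86 in ckit-neg arrays. All 21 lay above 0 between the genotypes over both fractions (median 0.83, 3 rose), and 19 below 0 between the fractions (median -0.62, 10 fell). The 12 primary granule genes of promyelocytes read 9.34 to 9.95 in ckit-pos and 7.97 to 8.86 in ckit-neg arrays, with 10 higher in ckit-pos cells. The 13 monocyte and macrophage genes had a median of -0.93 between the fractions, with 9 lower in ckit-pos cells. Between the genotypes over both fractions these lists had medians of 0.146 (8 of 12 above 0) and 0.0315 (7 of 13), with 0 called. Of the other marker lists none was called between the genotypes over both fractions. Between the fractions 2 of 11 stem and progenitor genes rose, among them Kit, whose rise follows from the sort. So did 1 of 7 erythroid genes, 1 of 9 B cell genes fell, and 0 of 8 T and NK cell and 0 of 6 megakaryocyte genes passed. No marker was listed at 0 on this scale. The part of these cells in the differences of the members was not tested, and in sorted bulk cells fewer cells of a type and less RNA per cell cannot be told apart. Averaged over both fractions, leukaemia 81 lay with the WT leukaemias in its members, and with the KI leukaemias in the late neutrophil genes. By fraction, the median deviation of its members from their mean over the 12 arrays was 0.046 in ckit-pos cells. That was below the WT ckit-pos arrays (0.149 to 0.278). In ckit-neg cells it was 0.0267, above the WT ckit-neg arrays (-0.0806 to -0.00104).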

How the data were processed

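Per the submitters' processing notes, the authors made the deposited log2 values in Affymetrix Expression Console by the RMA method; versions are not given in the sources used here. The deposited table held 41345 probe sets on 12 arrays, of which 23521 had 1 gene symbol in the platform annotation, and 1814 had several. RMA normalizes quantiles across arrays, so a shift shared by all genes cannot be seen. Arrays have no depth, and their number limits the precision. Genes above log2 4.61, the 25th percentile, on at least 3 arrays were tested (19152).

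The main model (limma 3.58.1 in R 4.3.3, with statmod 1.5.0) estimated 4 group means from the 12 arrays, and another was fitted to the 6 leukaemia means for the genotype over both fractions. Tests were two-sided, with Benjamini-Hochberg adjustment over all genes tested and a threshold of 0.05. The method was tested on simulated arrays drawn independently of each other, so that test does not cover arrays that share a leukaemia. Both fractions of a leukaemia share its number, and their deviations from the group means correlated at 0.279 to 0.601 in all 6 leukaemias, so the leukaemia was used as a block, fixed for the fractions and random (correlation 0.353) for the genotypes, in an alternative fit.

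The members and gene lists were chosen with earlier results of these data known. Named genes were Cycs, Sdha to Sdhd, the isoform families, every member past the threshold where at most 10 passed and otherwise the 3 with the smallest p per complex, the 3 with the smallest p of a complex without a call, up to 3 genes of each pathway list, Dnmt3b and Kit. Alternatives were another scaling, no filter or a stricter one, the mean of all probe sets, a trended robust prior, the block, the arrays of a comparison alone, and leaving out each leukaemia. Promoter sequences are from RefSeq.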

Additional observations from a re-analysis of the deposited data

Results flagged for a closer look

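The median ckit-pos minus ckit-neg difference of the 85 tested members was 0.0299 in leukaemia 81 and 0.23 to 0.266 in the other 5 leukaemias, a gap beyond the 95% critical value of Dixon's test over the 6 leukaemias. The same held for the 17 genes of complex V, with a median of 0.0299 in leukaemia 81 against 0.236 to 0.346 in the others. Among the 14 genes that rose in ckit-pos cells, Atp5j at 0.0868 and Cox5b at -0.0932 in leukaemia 81 stood apart in the same way. These are 4 of 20 sets and genes looked at, where chance gives about 1 in 20, and the 4 share genes and the leukaemia.

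Uqcrh, the hinge protein of complex III, was higher in ckit-pos cells of all 3 WT leukaemias (0.287, 0.0581 and 0.30) and lower in those of all 3 KI leukaemias (-0.457, -0.169 and -0.0529). The interaction was -0.4417 (limma, unadjusted p = 0.0276, adjusted p = 1), so it does not pass over all genes tested. The pseudogene Uqcrh-ps1 was too low to be tested.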

How the results depend on the processing

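No called value changed sign under the alternatives run, and the medians of the roles and pathway lists over both fractions and over both genotypes kept their sign under both other scalings. Of the medians by complex, 3 changed sign: complex III between the fractions in the KI leukaemias (0.086, and -0.071 without leukaemia 83), and the interaction of complex II (-0.064, and 0.028 without 79) and of complex V (-0.051, and 0.056 without 81). Over the single genes 213 values stayed on their side of the threshold, 72 lost and 5 gained a call; of the medians by complex 345 moved by less than the spread between leukaemias and 40 by more. With the replicate block, 26 members and 2109 genes passed between the fractions in the WT leukaemias, 10 and 1666 in the KI leukaemias, and 35 and 3758 over both; over both fractions 34 genes passed between the genotypes, and in ckit-pos cells 0 members. Members called in ckit-pos cells numbered 0 also with repeated quantile normalization, no filter, the mean of all probe sets and the trended robust prior, and 2 in a fit to these arrays alone. The genes called there were 17 with the mean of probe sets and 64 with these arrays alone, in ckit-neg cells 1 with these arrays alone, and over both fractions 2 with centring and 9 with the trended prior. Between the fractions the WT leukaemias gave 69 genes with centring, and 10 members and 898 genes with their arrays alone. Their member median of 0.256 became 0.308 with centring, 0.212 with quantile normalization and 0.215 with the mean of probe sets. The KI leukaemias gave 2 members and 543 genes with quantile normalization and 145 genes with their arrays alone. Over both, 8 members and 1460 genes passed with the trended prior. Leaving out each leukaemia gave 0 to 7, 0 to 4 and 0 to 6 members in ckit-pos cells, ckit-neg cells and over both fractions, with 0 to 123, 3 to 83 and 2 to 115 genes. Between the fractions it gave 0 to 12, 0 to 1 and 1 to 28 members in WT, KI and over both, with 1 to 662, 58 to 367 and 503 to 2087 genes, and 0 to 1 genes for the interaction. Leukaemias 81 and 85 bear on the WT count only through the shared estimate of the spread. Without them it was 12 and 4 members, beside 662 and 569 genes. Where not stated, the cause was not tested. Centring and quantile normalization moved the median of all genes by less than 0.1. With 3 leukaemias per genotype, 1 leukaemia decides whether members pass between the genotypes.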
